A study of Mus musculus with 4 samples.

Results

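The unfolded protein response and the folding machinery of the endoplasmic reticulum (ER) were followed in mouse colon tumours with and without Gsk3b in the intestinal epithelium. The members were 36 genes taken by symbol from the 26214 gene symbols of the count files, and 36 of 36 were found and tested. They comprised 17 ER folding factors, 7 stress sensors and transcription factors, 8 genes of ER-associated degradation (ERAD) and translocation, and 4 targets of the transcription factor ATF4. Tumour polyA RNA was sequenced in 4 libraries, of which 2 were labelled Gsk3b (IEC-/-), with loss of GSK3B from the intestinal epithelium, and 2 Gsk3b (IEC+/+), in which it is kept. All tumours had been raised with azoxymethane (AOM), a carcinogen, and dextran sulfate sodium (DSS), which injures the colonic lining, so both groups share that treatment. The Cre driver, the deleted exons, and the strain, age and sex of the mice are not given in the sources used here. Whether each library stands for a mouse of its own is not stated, and the p-values below therefore describe only the spread between these samples, which may be technical.

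When unfolded proteins accumulate in the ER, 3 membrane sensors respond. IRE1, encoded by Ern1 and, in mucosal epithelium, Ern2, splices Xbp1 mRNA so that it encodes an active transcription factor. ATF6 is cut in the Golgi to release another, and PERK, encoded by Eif2ak3, phosphorylates the translation factor eIF2alpha, which favours translation of ATF4. ATF6 and spliced XBP1 drive chaperone and degradation genes, while ATF4 drives amino acid and death-related genes such as Asns, Trib3, Chac1 and Ddit3. Mucus-secreting goblet cells and antibody-secreting plasma cells carry a heavy load of secreted protein and rely on this response. Splicing of Xbp1 and translation of Atf4 cannot be read from gene counts.

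Promoter sequences are given as background on the 2 arms of the response. The members were listed by known role and the motifs are those known for these arms. A split of motifs between role groups was thus largely set by that choice and is no finding. RefSeq promoters on GRCm38, the assembly also called mm10, run from 250 bases before to 50 after the start of a gene and were at hand for 29 of the 36 members. They were searched on both strands for 4 motifs, and 0 of the matches overlapped. The ER stress response element (ERSE) was read as CCAAT, any 9 bases and CCACG. It was in the promoters of 9 of 29 members (31.0%), against 37 of all 27025 genes with a promoter (0.137%). Of the folding factors, 7 of 14 held it, and of the ATF4 targets 0 of 4. The members were 9 of the 37 genes with a match. The sites are printed in the direction of the gene, with 8 bases on either side and the fixed letters of the motif in capitals. Where the match lay on the opposite strand the capitals read CGTGG and ATTGG.

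Hspa5, chr2:34772017-34772051: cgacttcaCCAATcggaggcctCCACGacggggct
Hsp90b1, chr10:86705630-86705664: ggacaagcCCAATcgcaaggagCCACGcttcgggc
Hsp90b1, chr10:86705525-86705559: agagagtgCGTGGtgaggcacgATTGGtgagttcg
Pdia6, chr12:17266483-17266517: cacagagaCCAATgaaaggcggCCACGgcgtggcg
Dnajc3, chr14:118937819-118937853: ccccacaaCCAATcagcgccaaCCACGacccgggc
Canx, chr11:50325792-50325826: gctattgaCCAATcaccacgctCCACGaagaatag
Calr, chr8:84847067-84847101: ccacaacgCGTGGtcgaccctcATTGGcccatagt
Creld2, chr15:88819512-88819546: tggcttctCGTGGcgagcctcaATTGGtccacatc
Syvn1, chr19:6046524-6046558: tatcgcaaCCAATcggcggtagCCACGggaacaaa
Derl3, chr10:75893234-75893268: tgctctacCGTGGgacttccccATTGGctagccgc

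The genes Hsp90b1, Canx and Calr lie on the minus strand and the other genes of that set on the plus strand. The related element ERSE-II was read as ATTGG, any 1 base and CCACG. It was in the promoters of 2 of 29 members (6.90%), against 12 of all 27025 genes with a promoter (0.0444%). Both of those members lie on the plus strand.

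Dnajb11, chr16:22857844-22857870: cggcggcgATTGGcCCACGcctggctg
Herpud1, chr8:94386369-94386395: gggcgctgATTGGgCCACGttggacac

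The ATF4 element (CARE) was read as TGATGNAA. It was in the promoters of 3 of 4 ATF4 targets (75.0%) and 0 of 14 folding factors, against 4.51% of all genes with a promoter. Outside the ATF4 targets the ERAD gene Herpud1 alone held a match. Chac1 and Herpud1 lie on the plus strand, Asns and Trib3 on the minus strand. On the strand opposite to the gene the capitals read TT, 1 base and CATCA.

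Asns, chr6:7693217-7693240: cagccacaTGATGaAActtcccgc
Chac1, chr2:119351041-119351064: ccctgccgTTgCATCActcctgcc
Trib3, chr2:152344031-152344054: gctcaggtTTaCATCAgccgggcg
Herpud1, chr8:94386309-94386332: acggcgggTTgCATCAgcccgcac

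A further element, UPRE, read as TGACGTGG, was in the promoters of 0 of 29 members and of 0.714% of all genes with a promoter. These are exact matches of letters in a short window, so variants of an element were not counted, and no binding was measured. The whole window of Hspa5, the member with the largest difference between groups, lies at chr2:34771840-34772139 on the plus strand. Its exact ERSE match is in capitals, from 65 to 47 bases before the start:

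Hspa5 promoter: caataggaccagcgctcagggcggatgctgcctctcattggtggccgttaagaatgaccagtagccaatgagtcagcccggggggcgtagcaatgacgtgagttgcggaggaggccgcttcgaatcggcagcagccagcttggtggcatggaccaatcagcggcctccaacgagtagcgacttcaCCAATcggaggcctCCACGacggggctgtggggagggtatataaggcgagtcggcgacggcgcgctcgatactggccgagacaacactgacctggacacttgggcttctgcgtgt

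The libraries were of like depth, with 25472503 to 27218515 counts. Of 16637 genes tested by the quasi-likelihood test of edgeR, 127 were lower in IEC-/- (0.763%) and 20 higher (0.120%) at an adjusted p under 0.05, with a median log2 fold change of 0.01 for all of them. Gsk3b itself had 152 and 149 CPM (counts scaled by TMM-adjusted library size to a fixed total) in IEC-/- libraries, against 170 and 157 CPM in IEC+/+ libraries (edgeR adjusted p = 0.681). A tissue with non-epithelial cells and an unknown deleted segment make this no check of the labels, so the groups are called by their labels. The epithelial genes Krt8 and Krt19 averaged 1523 ± 142 and 1110 ± 28.0 CPM in IEC-/- tumours, against 2958 ± 486 and 2140 ± 315 CPM in IEC+/+ tumours (SD, n = 2 each). Epithelium was thus present in both groups.

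The fitted log2 fold change was below 0 for 30 of the 36 members, as it was for 48.5% of all genes. By edgeR, 0 of the 36 passed at an adjusted p under 0.05 in either direction. At an unadjusted p under 0.05, 17 members were lower (9.12% of all genes were) and 0 were higher (7.50% of all genes). The groups did not overlap for 24 members that were lower in IEC-/- (24.1% of all genes) and for 2 that were higher (24.0%). By DESeq2 11 members were lower at an adjusted p under 0.05 (5.02% of all genes), 4 with the exact test of edgeR (3.40%) and 0 with limma-voom (0.409%). Higher members numbered 0 by DESeq2 (2.93% of all genes), 0 with the exact test (1.90%) and 0 with limma-voom (0.0601%). The smallest adjusted p of a member by the quasi-likelihood test was 0.103, that of Hspa5.

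**Figure D1:**
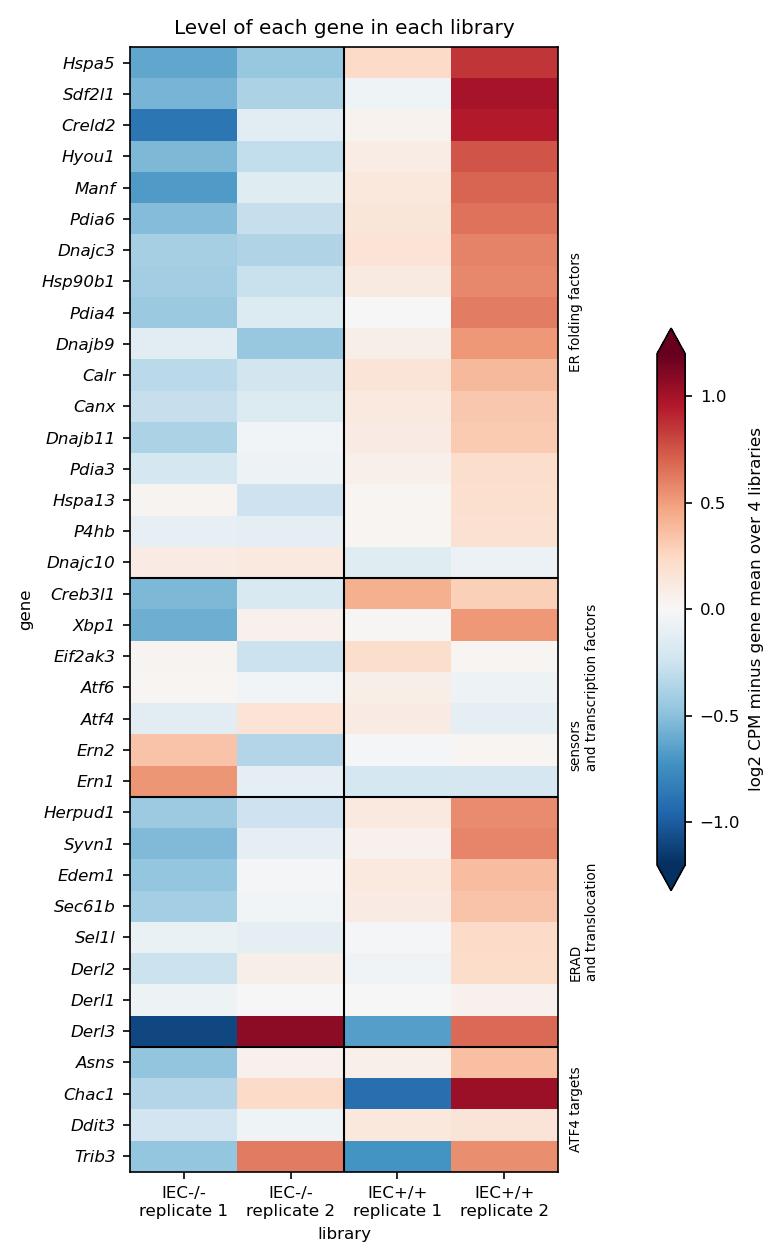
Level of the 36 genes in each library, as log2 CPM minus the mean of the gene over the 4 libraries (colour), ordered by role and then by fold change, with IEC-/- libraries on the left. Among the folding factors IEC+/+ replicate 2 is the highest library for 16 of 17 genes, whereas the sensors and transcription factors share no such order.

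The 17 folding factors were the lowest of the 4 role groups in IEC-/-, with a median log2 fold change of -0.64 beside 0.01 for all genes. At an unadjusted p under 0.05, 12 were lower (9.12% of all genes). Groups were apart and lower in IEC-/- for 15 (24.1% of all genes). The member furthest apart was Hspa5 (chromosome 2, 34772090 to 34776529), which encodes BiP, the main ER chaperone and the brake that holds the sensors inactive. Hspa5 had 613 and 692 CPM in IEC-/- libraries, against 1107 and 1713 CPM in IEC+/+ libraries. Every IEC-/- value lay below every IEC+/+ value, but the IEC+/+ libraries themselves differed by 0.63 on the log2 scale. The log2 fold change of Hspa5 was -1.11 (SE 0.23, 95% interval of the ratio 0.312 to 0.686, edgeR adjusted p = 0.103). By DESeq2 the adjusted p was 8.37e-05.

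Partners of BiP were lower in both IEC-/- libraries as well. Hyou1 (chromosome 9, 44379490 to 44392369), the nucleotide exchange factor of BiP, had 173 and 205 CPM in IEC-/- tumours, against 268 and 425 CPM in IEC+/+ tumours (log2 fold change -0.87, edgeR adjusted p = 0.176). Dnajc3, a J-domain co-chaperone also called p58IPK, had 147 and 152 CPM in IEC-/- tumours, against 218 and 294 CPM in IEC+/+ tumours (-0.78, SE 0.17, edgeR adjusted p = 0.119). Dnajb9, the J-domain protein that helps BiP to bind IRE1, had 53.1 and 42.8 CPM in IEC-/- tumours, against 61.6 and 83.9 CPM in IEC+/+ tumours (-0.60). In these 3 genes the libraries of the groups did not overlap, and IEC+/+ replicate 2 stood highest. Dnajb11, another J-domain partner, had 94.0 and 119 CPM in IEC-/- tumours, against 130 and 151 CPM in IEC+/+ tumours (-0.40, unadjusted p = 0.0548 by edgeR).

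Not all members of these families followed. Dnajc10, a J-domain disulfide reductase that aids ERAD, was higher, with 172 and 174 CPM in IEC-/- tumours against 146 and 154 CPM in IEC+/+ tumours (log2 fold change 0.21, edgeR adjusted p = 0.441). It was the 1 folding factor of 17 with a higher mean in IEC-/-. Hspa13, an ER and microsomal relative of the HSP70 proteins, overlapped between groups, with 70.6 and 58.2 CPM in IEC-/- tumours and 70.4 and 79.1 CPM in IEC+/+ tumours.

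The chaperone of the HSP90 family and the lectin chaperones were lower in both IEC-/- libraries too. Hsp90b1, which encodes GRP94, had 466 and 519 CPM in IEC-/- tumours, against 672 and 926 CPM in IEC+/+ tumours (log2 fold change -0.70, SE 0.18, edgeR adjusted p = 0.160). Calr and Canx encode calreticulin and calnexin, which retain glycoproteins until they fold. Calr had 603 and 649 CPM in IEC-/- tumours, against 840 and 993 CPM in IEC+/+ tumours (-0.55, SE 0.14, edgeR adjusted p = 0.144). Canx had 388 and 419 CPM in IEC-/- tumours, against 507 and 586 CPM in IEC+/+ tumours (-0.44). In both lectin chaperones the IEC+/+ libraries lay clear of the IEC-/- libraries. Between the IEC+/+ libraries the values were 0.24 and 0.21 apart on the log2 scale, with replicate 2 the higher.

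Disulfide isomerases were lower by differing amounts. Pdia6, which also attenuates IRE1, had 147 and 175 CPM in IEC-/- tumours, against 235 and 332 CPM in IEC+/+ tumours (log2 fold change -0.81, SE 0.20, edgeR adjusted p = 0.146). Pdia4 had 172 and 208 CPM in IEC-/- tumours, against 233 and 358 CPM in IEC+/+ tumours (-0.64). For Pdia3, which works with the lectin chaperones, the values were 590 and 658 CPM in IEC-/- tumours, against 715 and 789 CPM in IEC+/+ tumours (-0.27, 95% interval of the ratio 0.666 to 1.03). P4hb, the founding isomerase and a subunit of prolyl hydroxylase, had 772 and 767 CPM in IEC-/- tumours, against 839 and 939 CPM in IEC+/+ tumours (-0.21, 0.703 to 1.07). The groups did not overlap for any of the 4, while the intervals of Pdia3 and P4hb included equal levels.

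Small soluble ER proteins had large differences and also a large spread within IEC+/+. Sdf2l1, a partner of J-domain proteins that keeps clients soluble, had 35.9 and 40.6 CPM in IEC-/- tumours, against 50.7 and 104 CPM in IEC+/+ tumours (log2 fold change -1.02, SE 0.34). Creld2 had 31.3 and 52.5 CPM in IEC-/- tumours, against 58.7 and 111 CPM in IEC+/+ tumours (-1.02, SE 0.37). Manf, a secreted survival factor retained in the ER by BiP, had 90.8 and 131 CPM in IEC-/- tumours, against 158 and 236 CPM in IEC+/+ tumours (-0.83, SE 0.26). The edgeR adjusted p-values of these genes were 0.236, 0.269 and 0.222. For Sdf2l1 the libraries of IEC+/+ differed from each other by more (1.04 on the log2 scale) than the groups did.

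**Figure D2:**
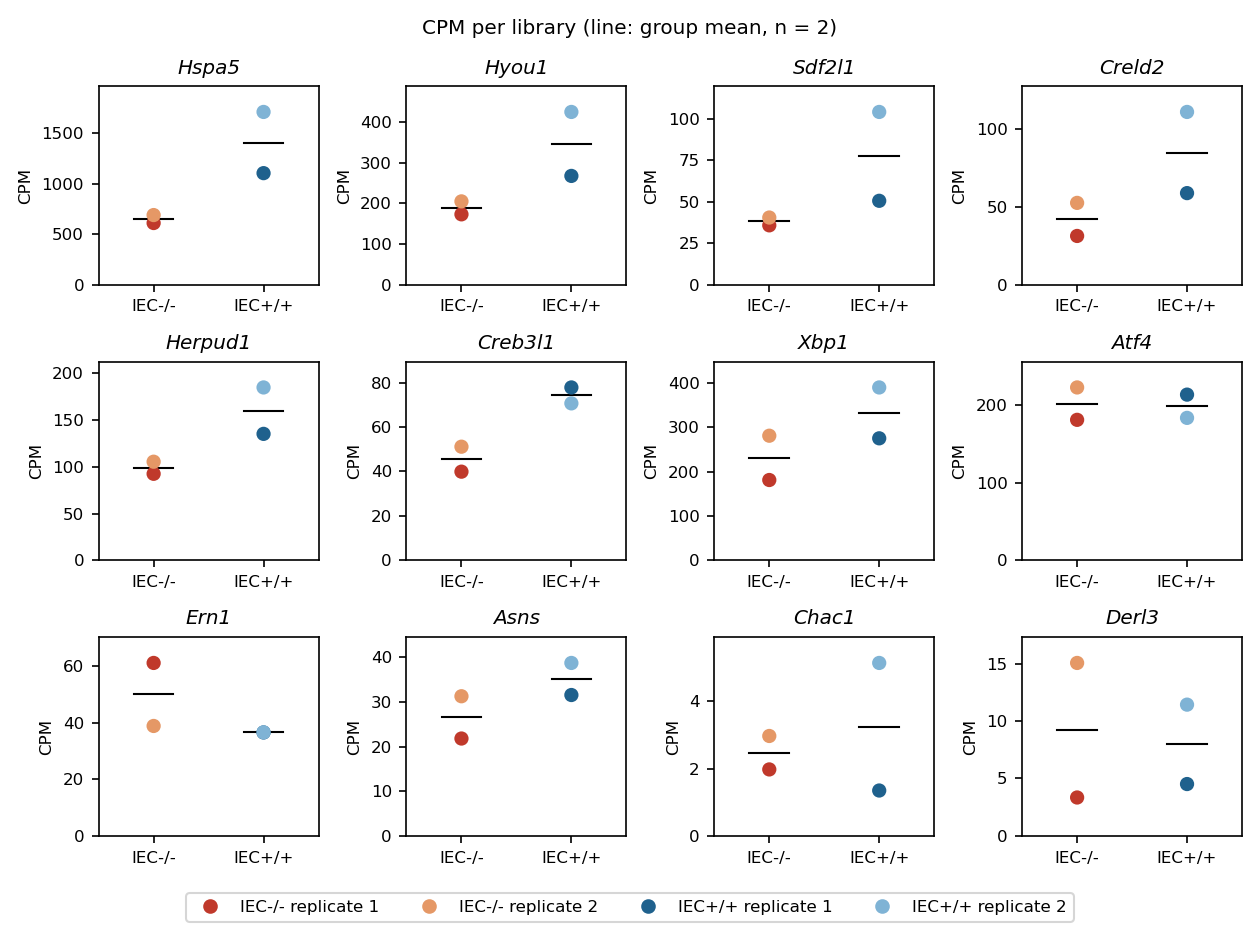
CPM per library for 12 of the genes, IEC-/- on the left and IEC+/+ on the right of each panel (points, 1 library each; line, mean of 2). Hspa5, Hyou1, Sdf2l1, Creld2, Herpud1 and Creb3l1 have groups that do not overlap and are lower in IEC-/-, Xbp1, Atf4, Chac1 and Derl3 overlap, Asns lies apart by a narrow gap, and Ern1 is higher in both IEC-/- libraries, by far the more in replicate 1.

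Among the genes of degradation and translocation, 4 of 8 were lower at an unadjusted p under 0.05, and the median log2 fold change was -0.32. Herpud1, a membrane scaffold of the ERAD complex whose promoter held ERSE-II and CARE, had 92.4 and 105 CPM in IEC-/- tumours, against 135 and 185 CPM in IEC+/+ tumours (log2 fold change -0.69, SE 0.18, edgeR adjusted p = 0.164). Syvn1, the ubiquitin ligase HRD1, had 61.5 and 82.2 CPM in IEC-/- tumours, against 92.4 and 134 CPM in IEC+/+ tumours (-0.65). Edem1, which hands misfolded glycoproteins to ERAD, had 123 and 167 CPM in IEC-/- tumours, against 184 and 218 CPM in IEC+/+ tumours (-0.47). Sec61b, a subunit of the translocation channel, had 62.7 and 81.2 CPM in IEC-/- tumours, against 89.3 and 105 CPM in IEC+/+ tumours (-0.44). Groups did not overlap for any of these 4 genes, while 24.1% of all genes were lower without overlap.

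The other ERAD members differed little. Sel1l, the partner of HRD1, had 171 and 167 CPM in IEC-/- tumours, against 177 and 211 CPM in IEC+/+ tumours (log2 fold change -0.20). The derlins, which form part of the exit channel, divided. Derl1 had 166 and 172 CPM in IEC-/- tumours, against 173 and 179 CPM in IEC+/+ tumours, with a 95% interval of the ratio of 0.788 to 1.17. Derl2 had 56.6 and 71.2 CPM in IEC-/- tumours and 65.9 and 79.1 CPM in IEC+/+ tumours, which overlapped. It shares 231 exon bases with Mis12 on the opposite strand, and strand-aware counting was not stated.

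Derl3, the inducible derlin, was set apart by its spread. It had 3.34 and 15.1 CPM in IEC-/- tumours, against 4.52 and 11.4 CPM in IEC+/+ tumours (log2 fold change 0.21, SE 0.77, 95% interval of the ratio 0.302 to 4.40). Replicate 2 was high and replicate 1 low in both groups. Plasma cell markers were also highest in IEC-/- replicate 2, and the 8 genes on that list summed to 818 and 3285 CPM in IEC-/- tumours, against 1189 and 1309 CPM in IEC+/+ tumours. Within that list Jchain, the joining chain of secreted antibodies, had 215 and 2471 CPM in IEC-/- tumours, against 567 and 678 CPM in IEC+/+ tumours. Mzb1, an ER protein of plasma cells, had 2.84 and 42.0 CPM in IEC-/- tumours, against 8.92 and 12.0 CPM in IEC+/+ tumours. In each of the 4 libraries 0 of the 8 were at 0, and their part in the spread of Derl3 was not tested.

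Transcripts of the sensors and transcription factors shared no direction, with a median log2 fold change of -0.01. Atf6 had 94.2 and 90.9 CPM in IEC-/- tumours, against 97.3 and 88.8 CPM in IEC+/+ tumours (log2 fold change -0.01, 95% interval of the ratio 0.811 to 1.22). Atf4 had 181 and 222 CPM in IEC-/- tumours, against 213 and 183 CPM in IEC+/+ tumours (0.02, 0.775 to 1.33). The groups overlapped for both genes. Xbp1, itself a target of ATF6 and XBP1, had 181 and 281 CPM in IEC-/- tumours, against 276 and 390 CPM in IEC+/+ tumours (-0.52, SE 0.27, edgeR adjusted p = 0.409). Here IEC-/- replicate 2 lay just above IEC+/+ replicate 1.

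Creb3l1, an ATF6-like factor of secretory cells also called OASIS, was the member of this role group furthest apart. It had 39.9 and 51.2 CPM in IEC-/- tumours, against 77.8 and 70.6 CPM in IEC+/+ tumours (log2 fold change -0.70, SE 0.16, edgeR adjusted p = 0.124, DESeq2 adjusted p = 0.0113). Unlike the chaperones, its highest library was IEC+/+ replicate 1. Of the IRE1 genes, Ern1 had 61.1 and 38.8 CPM in IEC-/- tumours, against 36.6 and 36.6 CPM in IEC+/+ tumours (0.45, SE 0.23, edgeR adjusted p = 0.406), with replicate 1 of IEC-/- above the other 3 libraries. Ern2, the IRE1 gene of mucosal epithelium, had 43.8 and 27.1 CPM in IEC-/- tumours and 34.3 and 35.2 CPM in IEC+/+ tumours. Eif2ak3, which encodes PERK, overlapped, with 69.2 and 56.8 CPM in IEC-/- tumours and 78.3 and 68.7 CPM in IEC+/+ tumours. These sensor levels are of mRNA, and the sensors act through their activity.

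**Figure D3:**
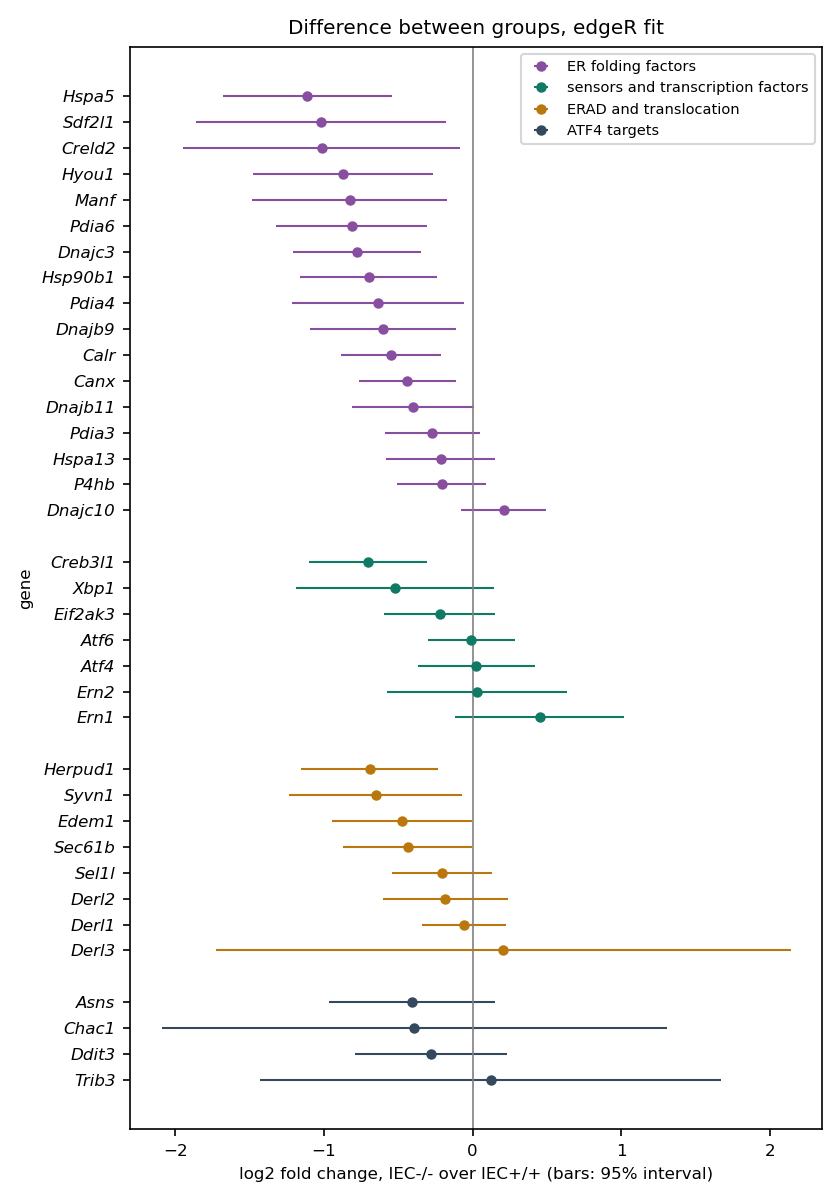
Log2 fold change of each member, IEC-/- over IEC+/+, from the edgeR fit over all 16637 genes (points; bars, 95% interval), grouped by role. Intervals of 17 genes lie wholly below 0, 12 of them folding factors, and those of Derl3, Chac1 and Trib3 are the widest.

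The ATF4 targets were next set against the chaperones. Asns, asparagine synthetase, had 21.8 and 31.3 CPM in IEC-/- tumours, against 31.5 and 38.7 CPM in IEC+/+ tumours (log2 fold change -0.41, SE 0.22, edgeR adjusted p = 0.444). Ddit3, which encodes the death-promoting factor CHOP, had 11.7 and 13.2 CPM in IEC-/- tumours, against 14.9 and 15.2 CPM in IEC+/+ tumours (-0.28, SE 0.20). Groups did not overlap for either gene, though the gap of Asns was 0.01 on the log2 scale. Chac1, a glutathione-degrading enzyme, had 1.98 and 2.97 CPM in IEC-/- tumours, against 1.35 and 5.15 CPM in IEC+/+ tumours (-0.39, SE 0.68). Trib3, a pseudokinase that restrains ATF4, had 1.47 and 3.13 CPM in IEC-/- tumours, against 1.24 and 2.99 CPM in IEC+/+ tumours (0.12, SE 0.62). Chac1 and Trib3 were thus scarce, with 32 to 136 reads per library, and differed more between replicates than between groups.

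At an unadjusted p under 0.05 by edgeR, 0 of the 4 ATF4 targets were lower (9.12% of all genes). By DESeq2, limma-voom or the exact test, 0 of these genes were called. Their median log2 fold change was -0.34, near the -0.32 of the ERAD and translocation genes. Against the -0.64 of the folding factors this made a difference of -0.30, which was not tested. That difference was not stable. The median of the ATF4 targets was 0.31 and that of the folding factors -0.41 when IEC+/+ replicate 2 was left out. A further 36 ATF4 targets were tested, amino acid transporters, aminoacyl-tRNA synthetases and serine enzymes among them. Of these, 2 were lower (9.12% of all genes) and 1 higher (7.50%) at an unadjusted p under 0.05 by edgeR. Their median was -0.06, and 0 passed after adjustment by edgeR (0 lower and 1 higher by DESeq2). Those 3 genes were Slc1a5, a glutamine transporter, at 228 ± 12.5 CPM in IEC-/- tumours and 166 ± 8.02 CPM in IEC+/+ tumours, Cebpg, a partner of ATF4, at 127 ± 19.0 and 178 ± 1.67 CPM, and Stc2, a secreted glycoprotein gene, at 4.65 ± 0.322 and 8.61 ± 0.771 CPM in the same order (SD, n = 2 each). Their edgeR adjusted p-values were 0.159, 0.197 and 0.205.

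Fold changes were next read beside the promoter matches above. The 11 members with an ERSE or ERSE-II had a median log2 fold change of -0.69. Of them, 9 were lower at an unadjusted p under 0.05 by edgeR (9.12% of all genes). The 18 with a promoter but neither element had a median of -0.27, and 5 were lower. Those 18 include all the ATF4 targets, so the split partly repeats the role groups. Among folding factors alone the 8 with a match ran from -1.11 to -0.40 with a median of -0.74, and the 6 without one from -1.02 to 0.21 with a median of -0.44. At that unadjusted p, Sdf2l1, Dnajb9, Pdia4, Edem1 and Sec61b were lower without a match. Derl3 and Dnajb11, with one, were not, so the match did not sort the members cleanly. These values are descriptions of few genes and were not tested.

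Replicates of a group also differed in these genes. IEC+/+ replicate 2 exceeded replicate 1 in 17 of 17 folding factors, by 0.08 to 1.04 on the log2 scale, with a median of 0.45 (all genes -0.01). IEC-/- replicate 2 exceeded replicate 1 in 14 of 17, with a median of 0.16 (all genes 0.0015). Over all 36 members replicate 2 was the higher in 28 for IEC-/- and in 32 for IEC+/+. Among the 16637 genes tested it was the higher in 8337 for IEC-/- and in 8047 for IEC+/+. IEC+/+ replicate 2 was the highest of the 4 libraries for 27 of 36 members, against 20.7% of all genes. IEC-/- replicate 2 was highest for 4 (27.7%) and IEC+/+ replicate 1 for 3 (26.2%). IEC-/- replicate 1 was the lowest library for 25 of 36 (25.3% of all genes). The difference between groups was downward and larger than that between the replicates of either group for 21 of 36 members (18.4% of all genes), 14 of them folding factors.

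**Figure D4:**
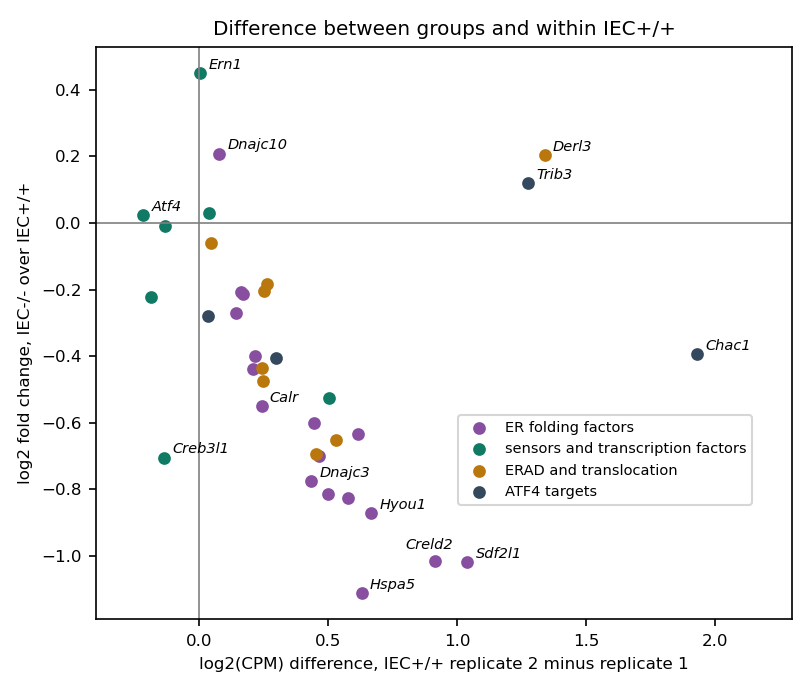
Log2 fold change between groups (vertical axis, IEC-/- over IEC+/+) against the log2 difference between the IEC+/+ libraries (horizontal axis, replicate 2 minus replicate 1) for the 36 members, coloured by role. Both axes use the same IEC+/+ libraries, so they are not independent; Hspa5, Creld2 and Sdf2l1 lie low and to the right, and Creb3l1 lies low without a rise in IEC+/+ replicate 2.

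With a library left out, a group kept a single library, so only log2 fold changes are given for those fits. Without IEC+/+ replicate 2 the median of the folding factors was -0.41, against -0.64 with all 4 libraries. Over the 4 sets with a library left out, the log2 fold change of Hspa5 ran from -1.40 to -0.77. Those of Sdf2l1, Creld2, Hyou1 and Pdia4 ran from -1.45 to -0.41, -1.44 to -0.49, -1.17 to -0.50 and -0.91 to -0.30, each nearest to 0 without IEC+/+ replicate 2.

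Lists of other cell types and of sample handling also differed between the groups. Cytosolic heat shock genes, which respond to heat and handling, summed to 6090 and 5952 CPM in IEC-/- tumours, against 7688 and 11757 CPM in IEC+/+ tumours, so that they too were highest in IEC+/+ replicate 2. Of these 12 genes, 9 were lower at an unadjusted p under 0.05 (9.12% of all genes). After adjustment 0 passed by edgeR, and 7 were lower by DESeq2 (5.02% of all genes). Their 2 most abundant genes were Hspa8, at 2225 ± 13.5 CPM in IEC-/- tumours and 4245 ± 1078 CPM in IEC+/+ tumours, and Hsp90ab1, at 2284 ± 98.8 and 2534 ± 580 CPM in the same order (SD, n = 2 each). The stress-inducible HSP70 genes, chosen after their values were seen, differed by more. Hspa1b had 55.6 and 51.5 CPM in IEC-/- tumours, against 162 and 596 CPM in IEC+/+ tumours (log2 fold change -2.82, edgeR adjusted p = 0.111), and Hspa1a had 30.6 and 24.3 CPM in IEC-/- tumours, against 98.3 and 266 CPM in IEC+/+ tumours (-2.73, edgeR adjusted p = 0.0762). Both were highest in IEC+/+ replicate 2, and as near-identical copies they may share reads, so their separate values are uncertain. Epithelial markers summed to 5938 and 5534 CPM in IEC-/- tumours, against 10298 and 8829 CPM in IEC+/+ tumours, and were highest in IEC+/+ replicate 1 instead. Of these 8, 1 was lower after adjustment by edgeR (0.763% of all genes) and 6 by DESeq2 (5.02%). At an unadjusted p under 0.05 by edgeR, 6 were lower (9.12%).

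Goblet cell markers had the widest gap, with sums of 557 and 1121 CPM in IEC-/- tumours, against 5462 and 3268 CPM in IEC+/+ tumours. Of these genes, 8 of 8 were lower at an unadjusted p under 0.05 by edgeR (9.12% of all genes). After adjustment 2 were lower by edgeR (0.763% of all genes) and 6 by DESeq2 (5.02%). In that list Fcgbp, a mucus protein gene, averaged 185 ± 14.1 CPM in IEC-/- tumours and 1523 ± 615 CPM in IEC+/+ tumours, and Muc2, the main secreted mucin, 382 ± 323 and 1232 ± 88.7 CPM in the same order (SD, n = 2 each). Per unit of epithelial marker sum, the summed folding factors stood at 0.778 and 0.915 in IEC-/-, against 0.613 and 0.937 in IEC+/+. Those ranges overlapped. Per unit of heat shock sum they stood at 0.758 and 0.851 in IEC-/-, against 0.821 and 0.704 in IEC+/+, and also overlapped. Per unit of goblet marker sum they stood at 8.29 and 4.52 in IEC-/-, against 1.16 and 2.53 in IEC+/+, so that this ratio was higher in IEC-/- and the groups did not overlap. In bulk tissue, fewer cells of a type and less RNA per cell cannot be told apart, and the part of these lists in the difference was not tested.

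Stromal, macrophage and immediate-early lists followed other orders. Fibroblast markers summed to 2303 and 1992 CPM in IEC-/- tumours, against 3469 and 2139 CPM in IEC+/+ tumours, with Col3a1 and Col1a1 the most abundant. Smooth muscle markers summed to 216 and 245 CPM in IEC-/- tumours, against 446 and 174 CPM in IEC+/+ tumours, with Acta2 and Tagln the most abundant, so that the library with the highest chaperones had the lowest muscle level. Macrophage markers, of which Lyz2 and C1qa were the most abundant, were higher, at 1216 and 834 CPM in IEC-/- tumours against 707 and 593 CPM in IEC+/+ tumours. Immediate-early genes, of which Jun and Junb were the most abundant, summed to 1257 and 1327 CPM in IEC-/- tumours, against 1898 and 1497 CPM in IEC+/+ tumours. These 4 lists held 7, 6, 6 and 12 genes, of which 0 passed by edgeR after adjustment. At an unadjusted p under 0.05 by edgeR, 1, 2, 0 and 3 genes were lower (9.12% of all genes) and 1, 0, 2 and 0 higher (7.50%). By DESeq2 0, 1, 0 and 2 were lower (5.02% of all genes) and 0, 0, 1 and 0 higher (2.93%) after adjustment.

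**Figure D5:**
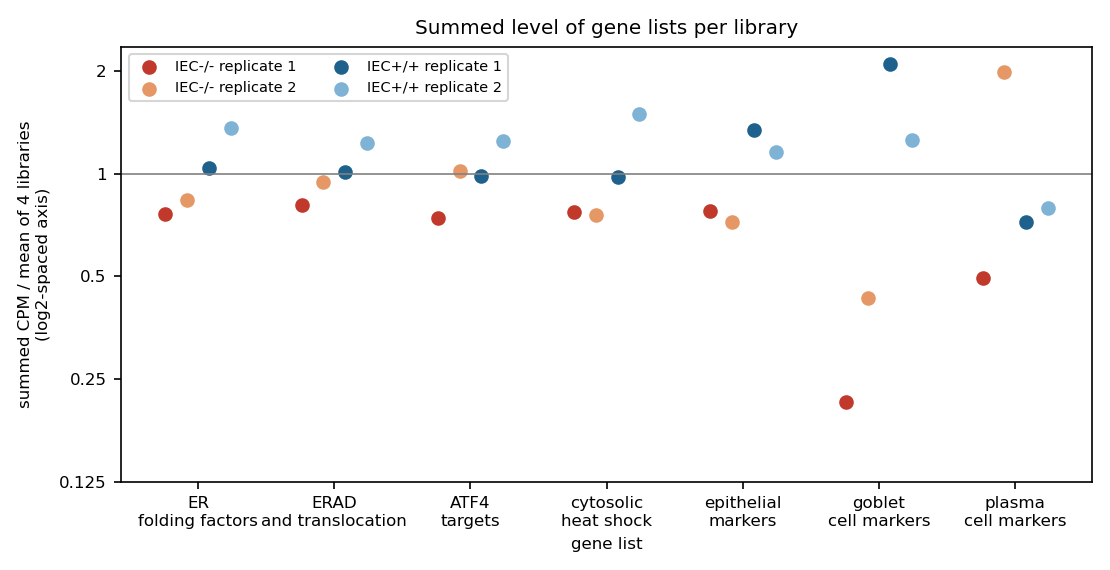
Summed CPM of gene lists in each library, divided by the mean of the 4 libraries (vertical axis, log2-spaced), with IEC-/- libraries left of IEC+/+ libraries within each list. Folding factors and heat shock genes are highest in IEC+/+ replicate 2, epithelial and goblet cell markers in IEC+/+ replicate 1, and plasma cell markers in IEC-/- replicate 2.

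Other steps of the secretory route were described in the same way, beside the 9.12% of all genes that were lower at an unadjusted p under 0.05 and the 5.02% called lower by DESeq2. Of 30 genes of transport between ER and Golgi, 29 had a lower mean in IEC-/-, 9 were lower and 0 higher at an unadjusted p under 0.05, and the median log2 fold change was -0.23. By edgeR 0 passed after adjustment (3 lower by DESeq2). The 3 of smallest p were Mcfd2, a cargo receptor subunit, at 80.5 ± 3.44 CPM in IEC-/- tumours and 140 ± 7.76 CPM in IEC+/+ tumours, Kdelr2, which returns ER residents from the Golgi, at 93.7 ± 0.439 and 134 ± 2.47 CPM, and Sec23a, of the COPII coat, at 43.2 ± 3.07 and 64.8 ± 9.07 CPM in the same order (SD, n = 2 each). Their edgeR adjusted p-values were 0.0585, 0.112 and 0.148. In each of these genes the groups did not overlap, and the adjusted p of Mcfd2 was below that of every member.

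Of 36 genes of translocation and N-glycosylation, 7 were lower and 0 higher at an unadjusted p under 0.05 (0 after adjustment by edgeR and 0 by DESeq2), with a median of -0.22. Spcs3, of the signal peptidase, averaged 127 ± 0.559 CPM in IEC-/- tumours and 168 ± 5.30 CPM in IEC+/+ tumours (SD, n = 2 each). The oligosaccharyltransferase genes Ostc and Rpn1 were lower as well, Ostc with 84.8 and 95.1 CPM in IEC-/- tumours, against 115 and 130 CPM in IEC+/+ tumours, and Rpn1 with 243 and 263 CPM in IEC-/- tumours, against 316 and 337 CPM in IEC+/+ tumours. Of 23 other ERAD genes, 3 were lower and 0 higher at that p, a share near that of all genes. After adjustment 0 passed by edgeR and 1 by DESeq2. The median of the 23 was -0.11, and 17 had a lower mean (48.5% of all genes). Groups did not overlap for 11 that were lower (24.1% of all genes) and 3 that were higher (24.0%). The 3 of smallest p were Ube2j1, a ubiquitin-conjugating enzyme of ERAD, Fam8a1, a component of the HRD1 complex, and Man1b1, an ER mannosidase, with log2 fold changes of -0.46, -0.36 and -0.32.

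Of 37 other genes of the response that were tested, 4 were lower and 1 higher at an unadjusted p under 0.05. That share was again near that of all genes. After adjustment 0 passed by edgeR and 2 were lower by DESeq2. The median of the 37 was -0.12, and 26 had a lower mean (48.5% of all genes). Groups did not overlap for 17 that were lower (24.1% of all genes) and 4 that were higher (24.0%). Ero1a, the oxidase that recharges disulfide isomerases and is also induced by hypoxia, had 80.4 and 92.7 CPM in IEC-/- tumours, against 141 and 143 CPM in IEC+/+ tumours (log2 fold change -0.71, edgeR adjusted p = 0.0774). Agr2, the isomerase of goblet cells needed to make MUC2, had 58.2 and 116 CPM in IEC-/- tumours, against 192 and 202 CPM in IEC+/+ tumours (-1.18, edgeR adjusted p = 0.173). Mbtps1, the protease that makes the first cut in ATF6, was higher, at 184 ± 6.62 CPM in IEC-/- tumours and 143 ± 12.5 CPM in IEC+/+ tumours (SD, n = 2 each; 0.36, edgeR adjusted p = 0.253).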

How the data were processed

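RNA was extracted with TRIzol, made into NEBNext Ultra libraries and sequenced as paired reads, per the labels' protocols. TopHat, edgeR, limma and the mm10 build are listed, without roles, in the submitters' processing notes. How reads were counted, with which annotation and whether by strand, is not given in the sources used here. From the values, the authors deposited raw counts per gene symbol.

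The main test was that of edgeR 4.0.16 under R 4.3.3 (TMM scaling, default filter, quasi-likelihood F-test, no covariate), with Benjamini-Hochberg adjustment over all 16637 genes tested. The script was tested on simulated data. DESeq2 1.42.0, the exact test of edgeR, limma-voom (limma 3.58.1), other scalings and filters, a replicate block and each library left out were alternatives. Standard errors derive from the F statistic. Counts of replicate libraries differed beyond sampling noise (chi-square per degree of freedom 66.6 in IEC-/- and 33.8 in IEC+/+). Depth is given as total counts, and intervals cover 95%. RefSeq on GRCm38 located 36 members. By GENCODE M21, 10 members share exon bases with other genes, so their counts are uncertain by those bases.

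Members and lists were chosen with earlier results of these data known. All members were named. Library values were due for members with an unadjusted p under 0.05, or the 3 of smallest p in a role group with fewer, and values of other members were added after they were seen. Of each pathway list the 3 genes of smallest p were named, and of each list of other cell types or handling the 2 most abundant. Agr2 is on a pathway and the goblet list. Jchain belongs to the plasma cell list with Sdc1, at 572 and 650 CPM in IEC-/- tumours and 561 and 558 CPM in IEC+/+ tumours, which epithelium also expresses; Mzb1 was added after its values were seen.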

Additional observations from a re-analysis of the deposited data

How the results depend on the processing

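With 2 libraries a group, 1 library can decide a count. Of 13 alternatives, those with all 4 libraries that count lower members differently are these. Members lower at an adjusted p under 0.05 numbered 11 by DESeq2, 4 by the exact test and 1 with the replicate block (Creld2, adjusted p = 0.0478 by edgeR), against 0 by the quasi-likelihood test. Whether replicate numbers pair the samples is not stated (2 pairs, correlation of deviations 0.16), so the block is an alternative only, and with the block 38 genes were higher. Genes lower and higher numbered 798 and 466 by DESeq2, 566 and 316 by the exact test of edgeR, 68 and 10 under limma-voom, and 307 and 69 with no filter beyond 1 count. With library totals alone, which moved the median of all genes to 0.12, 65 genes were lower, and the median of the sensors and transcription factors was 0.10. At an unadjusted p under 0.05, 10 members were lower and 1 higher by edgeR under that scaling. The share of all genes at that p was not computed there, so these member counts have no background beside them. Upper-quartile and RLE scaling and a filter of 1 CPM kept the counts of called members at 0.

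With each library left out, genes lower numbered 0 to 398 and genes higher 0 to 344, members lower 0 to 1 (Creb3l1, without IEC-/- replicate 2) and members lower at an unadjusted p under 0.05 5 to 19 (members higher 0 to 1). The medians ran from -0.91 to -0.41 (folding factors), -0.68 to -0.19 (ERAD and translocation), -0.25 to 0.0083 (sensors and transcription factors) and -0.61 to 0.31 (ATF4 targets), and the difference between the chaperone and ATF4 target medians from -0.72 to -0.17. The cause was not tested. Of single members, 17 values turned sign, all of genes without a call. Under other settings these were Atf6 (0.10 with library totals, 0.054 with upper-quartile scaling), Derl1 (0.047 and 0.0005), Ern2 (-0.0042 by limma-voom, -0.0090 with the block) and Derl3 (-0.045 by limma-voom). With each library left out, log2 fold changes ran from -0.076 to 0.056 for Atf6, -0.14 to 0.16 for Atf4, -0.37 to 0.33 for Ern2, -1.26 to 1.02 for Derl3, -0.525 to 0.89 for Trib3 and -1.06 to 0.87 for Chac1.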
